A study of Mus musculus with 8 samples.

Results

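Chromatin accessibility in mouse squamous cell carcinoma (SCC) cells that carry wild-type FAK (FAK-WT) was compared with that in cells that carry a kinase-deficient FAK (FAK-kd), using 2 ATAC-seq libraries of each line among the 8 libraries of 4 lines in the series. From each of the 4 peak lists the 24383 peaks with the highest −log10 p on chromosomes 1 to 19, X and Y were taken, and overlapping peaks were merged into 33841 regions. A region with a peak in both libraries of FAK-WT cells and none in those of FAK-kd cells is termed WT-only, and the opposite pattern kd-only. There were 1249 WT-only and 1065 kd-only regions, 2314 of the 33841 in all. The question put to these cells is which accessible sites depend on the kinase activity of FAK. The tumours arose in K14CreER FAKflox/flox FVB mice given dimethylbenz[a]anthracene and the phorbol ester TPA, a skin carcinogenesis protocol, and FAK was deleted from the excised cells in culture with 4-hydroxytamoxifen, so every line shares that deletion. FAK-WT or FAK-kd, which bears the substitution K454R, was then returned to a FAK-/- clone by retroviral transduction and hygromycin selection, so both lines derive from 1 clone and the line, its selection and its libraries cannot be told apart. The remaining lines, FAK-/- cells and cells with a FAK mutated in its nuclear localization sequence (FAK-nls), are used below only to show how their libraries called the same regions. The replicate numbers are those of the labels, and every spread given below is a spread between 2 libraries of 1 line.

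FAK, the product of *Ptk2*, is a tyrosine kinase that gathers at focal adhesions, where integrins join the extracellular matrix to the actin cytoskeleton. It also acts as a scaffold, for Src and for proteins of the Cas family among others, and a pool of it enters the nucleus, although it has no DNA-binding domain. In ATAC-seq the transposase Tn5 cuts and tags open chromatin, so a called peak marks a site where DNA was accessible, most often an enhancer or a promoter. AP-1, the dimer of Jun and Fos proteins, binds many enhancers of keratinocytes and of skin carcinomas.

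The DNA under the leading regions of each set is shown first, because the AP-1 heptamer recurs in the results below. A core region is a WT-only or kd-only region that had no peak at all in the full list of either library of the other line. The sequences are the central 200 bp of some of the core regions whose peaks ranked high in both of their libraries, and 300 bp of the WT-only region in *Il33*, the cytokine gene the study examined. They were read on the plus strand of mm10 from the RefSeq copy of that assembly, GRCm38.p6. Capitals mark TGACTCA, the AP-1 heptamer, or its reverse complement, and in the *Il33* window also TGACGTCA, the cyclic AMP response element (CRE) that dimers of Jun and ATF proteins bind. The first 4 lines after *Il33* are WT-only and the last 5 are kd-only. They were picked after their letters were seen, from 12 windows read in each set, and are not a sample of them. The heptamer was in 5 of the 12 WT-only and 4 of the 12 kd-only windows read, and in 3 of the 4 and 4 of the 5 shown.
Il33, chr19:29942435-29942734: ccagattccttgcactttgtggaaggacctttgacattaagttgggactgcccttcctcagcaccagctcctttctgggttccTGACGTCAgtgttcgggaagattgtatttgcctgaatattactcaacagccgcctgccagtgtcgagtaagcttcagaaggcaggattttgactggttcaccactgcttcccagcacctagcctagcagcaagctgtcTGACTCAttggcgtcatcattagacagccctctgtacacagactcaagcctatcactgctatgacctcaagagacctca
Cass4, chr2:172411261-172411460: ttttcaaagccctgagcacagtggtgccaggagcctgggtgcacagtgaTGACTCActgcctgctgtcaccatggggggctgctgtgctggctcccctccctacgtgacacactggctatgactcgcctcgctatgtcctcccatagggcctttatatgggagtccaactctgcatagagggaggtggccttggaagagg
Rbfox1, chr16:5790110-5790309: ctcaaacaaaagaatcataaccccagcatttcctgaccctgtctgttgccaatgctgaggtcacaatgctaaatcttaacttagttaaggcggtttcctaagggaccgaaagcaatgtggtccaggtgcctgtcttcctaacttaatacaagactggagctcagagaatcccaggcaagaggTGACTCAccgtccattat
Pappa2, chr1:158864045-158864244: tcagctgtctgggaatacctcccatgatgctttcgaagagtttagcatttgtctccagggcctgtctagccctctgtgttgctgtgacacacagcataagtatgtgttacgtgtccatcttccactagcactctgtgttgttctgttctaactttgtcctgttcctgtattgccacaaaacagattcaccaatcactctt
Tmprss5, chr9:49145281-49145480: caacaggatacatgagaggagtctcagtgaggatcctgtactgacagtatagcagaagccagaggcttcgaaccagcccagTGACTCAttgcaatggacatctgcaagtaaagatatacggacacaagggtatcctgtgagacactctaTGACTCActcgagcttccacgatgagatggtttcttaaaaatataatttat
Basp1, chr15:24748830-24749029: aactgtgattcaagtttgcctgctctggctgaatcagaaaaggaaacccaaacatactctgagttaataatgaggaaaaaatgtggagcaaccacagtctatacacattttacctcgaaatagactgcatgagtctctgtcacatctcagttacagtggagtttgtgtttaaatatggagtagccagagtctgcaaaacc
Amz2, chr11:109439910-109440109: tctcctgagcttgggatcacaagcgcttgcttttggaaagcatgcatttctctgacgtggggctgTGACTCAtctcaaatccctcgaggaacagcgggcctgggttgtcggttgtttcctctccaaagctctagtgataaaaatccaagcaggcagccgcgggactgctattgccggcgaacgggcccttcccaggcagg
Iyd, chr10:3466230-3466429: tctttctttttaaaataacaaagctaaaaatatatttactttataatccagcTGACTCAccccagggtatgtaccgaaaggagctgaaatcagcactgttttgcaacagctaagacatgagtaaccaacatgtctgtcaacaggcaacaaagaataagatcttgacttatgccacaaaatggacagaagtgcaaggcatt
Enpp3, chr10:24767882-24768081: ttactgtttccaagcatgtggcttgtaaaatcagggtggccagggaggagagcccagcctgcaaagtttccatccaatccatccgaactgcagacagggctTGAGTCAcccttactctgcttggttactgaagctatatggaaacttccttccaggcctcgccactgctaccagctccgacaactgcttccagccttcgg
Ncam1, chr9:49523960-49524159: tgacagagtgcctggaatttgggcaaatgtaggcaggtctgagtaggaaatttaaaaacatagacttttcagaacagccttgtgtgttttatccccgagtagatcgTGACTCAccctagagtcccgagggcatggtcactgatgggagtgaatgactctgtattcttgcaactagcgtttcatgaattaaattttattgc

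The heptamer is found in both sets, and some windows of each hold none. Over the central 200 bp it was present in 38.4% of the 1249 WT-only regions (95% Wilson interval 35.7 to 41.1), in 26.5% of the 1065 kd-only regions (23.9 to 29.2), in 23.5% of the 16352 regions called in all 4 libraries and in 27.2% of all 33841 regions. A match is a description of these letters, not evidence that a factor was bound.

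The peak lists differed in length, which is why equal numbers were taken. FAK-WT replicates 1 and 2 held 53728 and 39056 deposited peaks, and FAK-kd replicates 1 and 2 held 32961 and 45956. Read totals are not part of these lists, and the length of a list does not stand in for depth. The sequencing statistics of the study list more mapped reads for each FAK-WT library than for either FAK-kd library, so depth runs with the line and cannot be told apart from it. FAK-kd replicate 2 nevertheless had the second longest list. The weakest of the 24383 peaks had a −log10 p of 8.098 and 5.617 in the FAK-WT libraries and of 4.949 and 6.626 in the FAK-kd libraries. No peak had the same values in a pair of libraries. Of 14 genes that mark squamous keratinocytes, 11, among them *Trp63*, *Krt5*, *Krt14*, *Cdh1* and *Epcam*, had no called promoter in any of the 4 libraries, and *Itga6* had one in all 4. Promoters of 5 to 6 of 9 fibroblast markers were called in each library, with *Col1a1*, *Col1a2*, *Pdgfra*, *Pdgfrb* and *Thy1* called in all 4. Promoters of 1 to 3 of 14 immune markers were called in each library, with the defining *Ptprc* in none, and of 2 of 6 melanocyte markers in each. Of 7 endothelial markers, both FAK-WT libraries but neither FAK-kd library had a peak at the promoters of *Cdh5* and *Vwf*, while those of *Pecam1*, *Kdr*, *Tek*, *Tie1* and *Emcn* were called in none. The part of these differences in the results below was not tested.

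The 1249 WT-only regions were 3.69% of the 33841 regions and the 1065 kd-only regions were 3.15%. Most of the remainder was shared, since 16352 regions (48.3%) were called in all 4 libraries. Single libraries alone accounted for 1662 and 1917 regions in FAK-WT replicates 1 and 2 and for 2114 and 2030 in FAK-kd replicates 1 and 2. At the equal number, pairs that crossed the lines were somewhat rarer than pairs within a line. FAK-WT replicate 1 and FAK-kd replicate 2, the libraries with the longest lists, shared 971 regions with neither of the others, and FAK-WT replicate 2 and FAK-kd replicate 1 shared 832. The other crossed pairs shared 571 and 493. With all peaks this order did not hold, since 5211 regions were called in FAK-WT replicate 1 and FAK-kd replicate 2 alone, against 3010 WT-only and 575 kd-only regions. Nor did the heights set the lines apart. Over the 27122 regions called in all 4 full lists, Pearson's r of log2 fold enrichment was 0.763 between the FAK-WT libraries and 0.715 between the FAK-kd libraries, and 0.765 between FAK-WT replicate 1 and FAK-kd replicate 2, 0.728 between FAK-WT replicate 2 and FAK-kd replicate 1, and 0.711 and 0.688 for the other crossed pairs. These are correlations across regions, which are not replicates. With 2 libraries against 2, the smallest two-sided p that an exact permutation test of a single value allows is 0.333, so no single region can be tested from its calls.

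**Figure D1:**
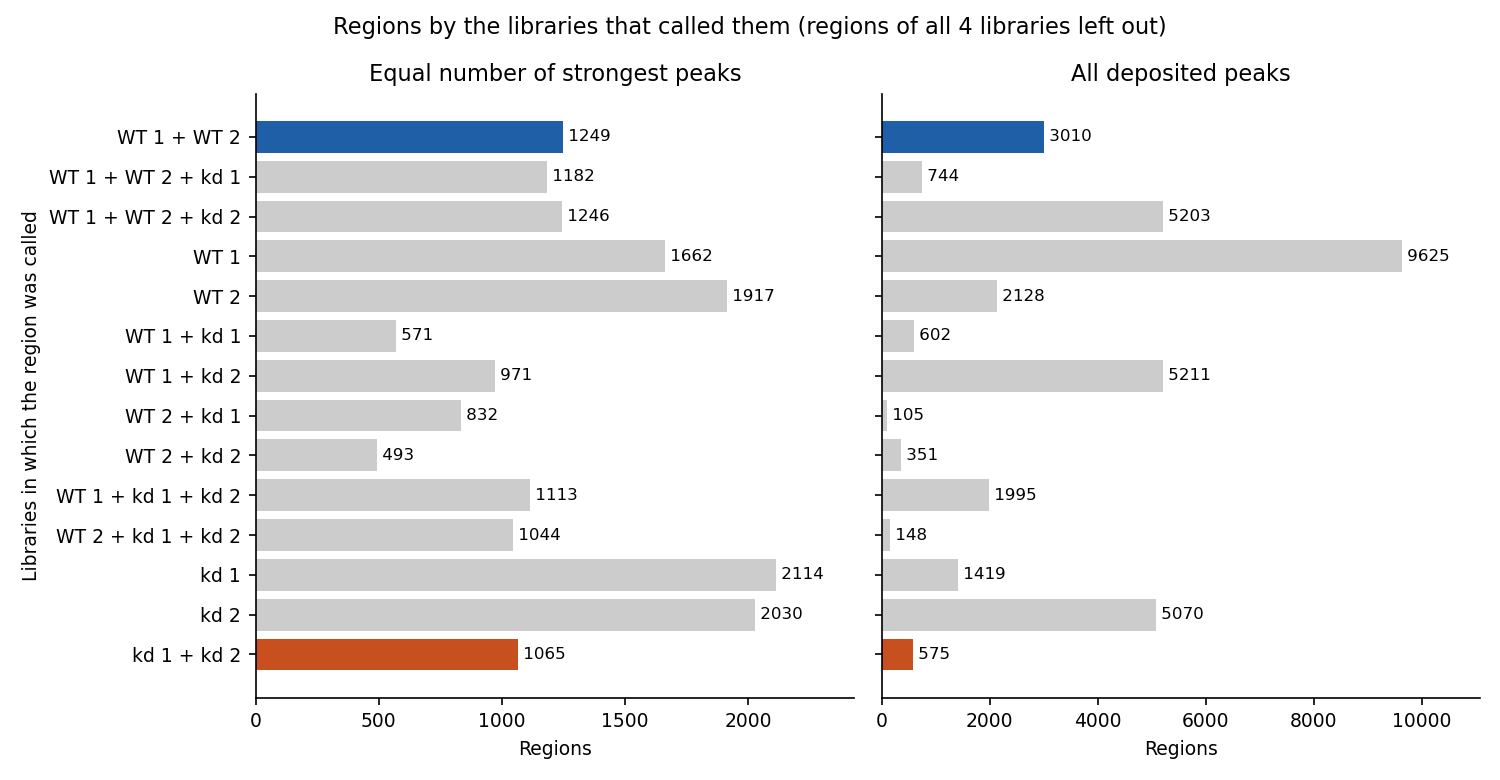
Number of regions (horizontal axis) for each set of libraries that called them (vertical axis), with equal numbers of the strongest peaks on the left and all deposited peaks on the right. The 1249 WT-only (blue) and 1065 kd-only (orange) regions on the left become 3010 and 575 on the right; other patterns are grey and regions of all 4 libraries are left out.

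The median member of both sets stood well down the list of 24383 peaks, among the weaker of those taken. In WT-only regions the median fold enrichment over local background was 5.47 in FAK-WT replicate 1 and 4.47 in replicate 2, and the median rank was 18298 and 18081 of 24383. In kd-only regions it was 4.09 in FAK-kd replicate 1 and 4.9 in replicate 2, at median ranks of 18883 and 19337. Regions called in all 4 libraries had medians of 5.88 and 5.01 in the FAK-WT and of 4.88 and 5.77 in the FAK-kd libraries, at median ranks from 8513 to 8619. Replicate 1 was the higher of the FAK-WT libraries and replicate 2 the higher of the FAK-kd libraries in the members and in the shared regions alike.

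A region outside the equal number was often still a peak further down the other line's list. Of the 1249 WT-only regions, 475 (38.0%) had a peak in the full lists of both FAK-kd libraries, 507 (40.6%) in that of replicate 2 alone and 47 (3.76%) in that of replicate 1 alone. The other 220 had none and are the core WT-only regions, 0.65% of all regions. Of the 1065 kd-only regions, 721 (67.7%) had a peak in both full FAK-WT lists and 269 (25.3%) in that of replicate 1 alone and 10 (0.939%) in that of replicate 2 alone, leaving 65 core kd-only regions, 0.192% of all regions. FAK-WT replicate 1 has the longest of the 4 lists, and the part of list length in these counts was not tested. With all deposited peaks merged into 63308 regions, 3010 (4.75%) were WT-only and 575 (0.908%) kd-only, and 27122 were called in all 4 libraries. In the full lists the larger set belonged to the line that held the longest of them, and at the equal number the counts were 1249 and 1065.

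All 12 leading core WT-only regions were more than 2 kb from a transcript start, in introns or between genes. The first was at chr2:172411105-172411616 in an intron of *Cass4*, a member of the Cas family of adaptor proteins that bind FAK and Src. It had a fold enrichment of 6.15 in FAK-WT replicate 1 and 6.43 in replicate 2, with ranks 7147 and 2078, and no peak in either FAK-kd list. At the equal number it was also called in both FAK-/- and both FAK-nls libraries, so among the 4 lines FAK-kd was the one without a call. The full lists held 4 weaker regions at *Cass4*, of which that at 7503 bp after the gene start was also found in both FAK-WT lists and neither FAK-kd list, with fold enrichments of 3.62 and 3.15.

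The regions that followed included those near *Rbfox1*, a neuronal splicing regulator, and *Stxbp6*, which binds the SNARE complex of membrane fusion. The *Rbfox1* region at chr16:5789886-5790532, at -95146 bp from the nearest start, had fold enrichments of 7.03 and 5.74 in FAK-WT replicates 1 and 2. The *Stxbp6* region reached 8.9 in replicate 1 and 5.49 in replicate 2, the widest gap between replicates among the 12. *Pappa2*, which encodes a protease of insulin-like growth factor binding proteins, had 7.21 and 6.26 at chr1:158863907-158864382 in its own intron. Other leading genes were *Zfpm2*, a cofactor of GATA factors, *Tusc1*, *Esyt3*, a tether of the endoplasmic reticulum to the plasma membrane, the adhesion molecule *Cadm2*, *Focad* and the serine protease *Tmprss5*, with fold enrichments between 5.11 and 7.47. At the equal number the *Rbfox1*, *Zfpm2* and *Cadm2* regions were called in no FAK-/- and no FAK-nls library. Among the 4 lines these were thus called, at that number, in FAK-WT cells alone.

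The leading core kd-only regions included gene starts. The first, at chr15:24748536-24749322, lay 664769 bp from *Basp1*, a membrane-bound protein of neuronal growth cones, with fold enrichments of 5.57 in FAK-kd replicate 1 and 6.85 in replicate 2. It was called in every FAK-/- and FAK-nls library, so among the 4 lines FAK-WT was the one without a call. At *Nid2*, a basement membrane nidogen, the region lay 37 bp from the transcript start, with fold enrichments of 4.95 and 6.43. At the equal number it was called in no FAK-/- or FAK-nls library. *Amz2*, a metalloprotease, had a region at -147 bp from its start, with 5.39 and 6.68 and the same absence from the remaining lines. *Dnajc27*, a small GTPase with a J domain, had one 95 bp after its start, with 4.76 and 5.73.

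The remaining 8 lay away from starts, near *Iyd*, an iodotyrosine deiodinase, *Enpp3*, an ectonucleotidase, the Polycomb group gene *Sfmbt2*, the histamine receptor *Hrh4*, *Trabd2b*, *Ncam1*, the neural cell adhesion molecule, *Sh3d19* and the transcription factor *Foxp1*. Their fold enrichments ran from 4.58 to 7.48, higher in FAK-kd replicate 2 than in replicate 1 for every one of the 12 genes. Of the sequences shown above, those of *Amz2*, *Iyd*, *Enpp3* and *Ncam1* carry the heptamer and that of *Basp1* does not.

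**Figure D2:**
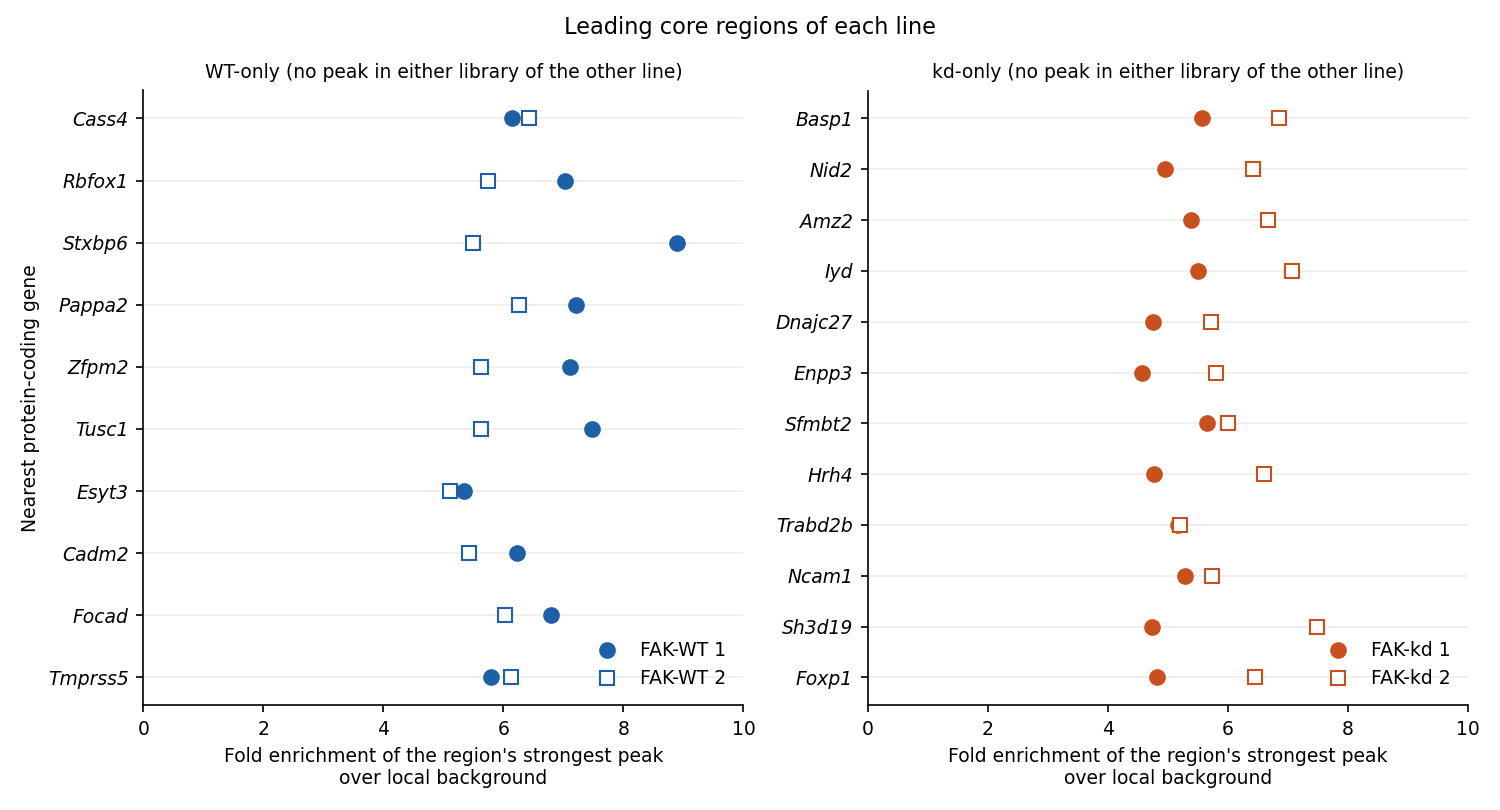
Fold enrichment over local background of the strongest peak (horizontal axis) in leading core regions of each set, named by the nearest protein-coding gene. Filled circles are replicate 1 and open squares replicate 2 of FAK-WT (blue) and FAK-kd (orange); values run from 5.11 to 8.9 in FAK-WT and from 4.58 to 7.48 in FAK-kd, and no region has a peak in the other line.

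The genes named next were picked for holding the most core WT-only regions, which were 0.65% of all regions. Each region was given to its nearest gene, and whether core regions gathered at genes was not tested. *Gabra2*, a subunit of the GABA-A receptor, was nearest to 5 core WT-only regions of its 9 regions, spread over chr5:71061572-71262878, with fold enrichments from 4.25 to 7.88. *Sorbs2*, an adaptor of actin and focal adhesions, was nearest to 4 of 7, over chr8:45484738-45598395. *Rbfox1* and *Stxbp6* each had 3, of 10 and 9 regions, and *Flrt2*, a guidance and adhesion receptor, had 3 of 25. *Tusc1*, *Bmp2* and the sodium-calcium exchanger *Slc8a1* each had 2, of 5, 6 and 4 regions. At these genes the only kd-only region was 1 at *Rbfox1*. Among the core kd-only regions, 0.192% of all regions, only *Shisa6*, a regulator of AMPA receptors, had more than 1, with 2 of 3 regions.

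The sets differed in where they lay relative to genes. A promoter was taken as 500 bp before to 2000 bp after any annotated transcript start, and a region counted when its centre lay there. This held for 162 of 1249 WT-only regions (13.0%, Wilson interval 11.2 to 14.9) and 324 of 1065 kd-only regions (30.4%, 27.7 to 33.3). It held for 34.3% of all regions and 46.4% of regions called in all 4 libraries. The kd-only share was the higher by 17.5 percentage points (interval 14.1 to 20.8), by 14.7 points with all peaks and by 16.6 points (6.38 to 28.8) in the core regions, where it was 26.2% against 9.55%. Regions called in 1 library of each line had 25.5%. These intervals cover counting over regions, which are not replicates. The size of the gap rested on FAK-kd replicate 1: without it the shares were 18.1% for WT-only and 22.0% for kd-only, a gap of 3.92 points. Leaving out FAK-WT replicate 1, FAK-WT replicate 2 or FAK-kd replicate 2 gave gaps of 12.4, 28.0 and 10.7 points, so the direction was the same in each. The share of promoters among all called regions was 37.1% and 39.6% in the FAK-WT libraries and 41.2% and 39.7% in the FAK-kd libraries. Among regions called in a single library it was 12.6%, 17.8%, 25.8% and 17.4% for FAK-WT replicates 1 and 2 and FAK-kd replicates 1 and 2, with FAK-kd replicate 1 the highest.

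Distance from genes followed the same order. The median distance to the nearest protein-coding transcript start was 21621 bp for WT-only regions, 13109 bp for kd-only regions and 9718 bp for all regions, and 39538 bp and 13406 bp for the core regions. Within 1 kb of a start 1.1% of regions were WT-only and 2.51% kd-only. More than 100 kb away 6.12% were WT-only and 3.42% kd-only. The WT-only share was higher in each successive class of distance, whereas the kd-only share beyond 1 kb ran between 2.81% and 3.94% with no such order. Mean GC content was 47.2% in WT-only, 50.5% in kd-only and 51.6% in all regions.

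**Figure D3:**
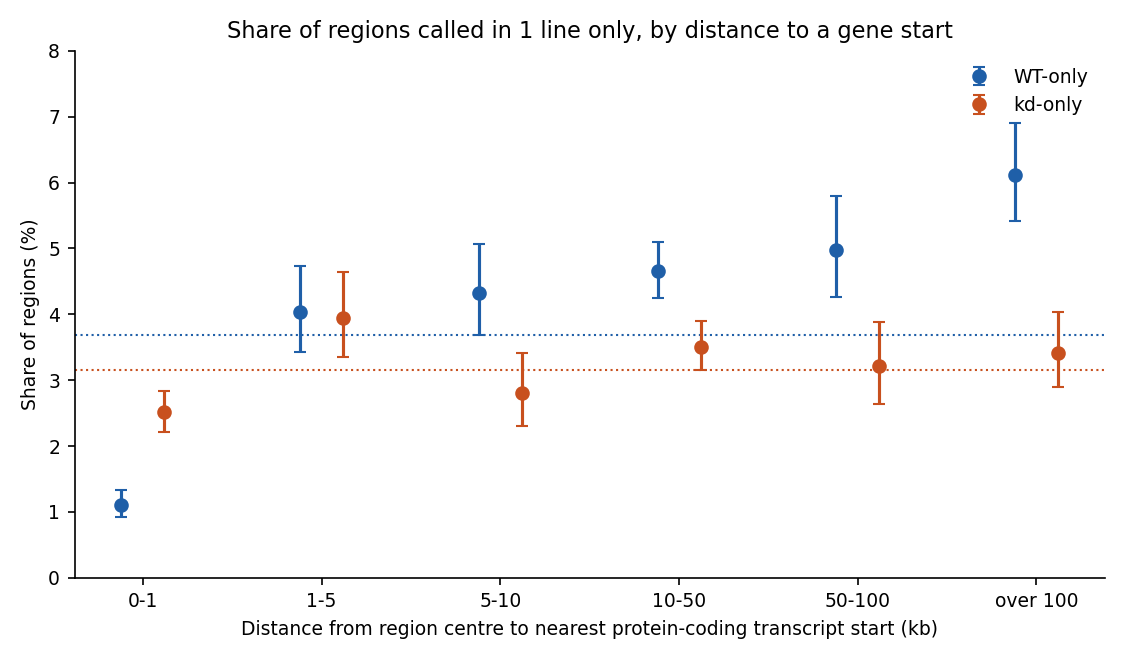
Share of regions (vertical axis, percent) that were WT-only (blue) or kd-only (orange), by distance in kb from the region's centre to the nearest protein-coding transcript start (horizontal axis), with 95% Wilson intervals. Dotted lines are the shares over all regions, 3.69% and 3.15%; the WT-only share runs from 1.1% within 1 kb to 6.12% beyond 100 kb.

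Core kd-only regions at starts took in genes of several functions. The 17 with their centre in a promoter included, besides *Nid2*, *Amz2* and *Dnajc27*, those of *Ank3*, an ankyrin that anchors membrane proteins to spectrin, *Arl6ip1*, *Lhpp*, *Birc3*, an inhibitor of apoptosis, *Tmod1*, which caps actin filaments, *Fmn1*, a formin that nucleates actin, and *Fhl1*, a LIM-domain protein. The *Ank3* region lay 118 bp after a start and had fold enrichments of 5.66 and 5.18 in FAK-kd replicates 1 and 2. Among the 21 core WT-only regions with their centre in a promoter were those of *Sema3d*, a secreted guidance cue, *Aim2*, a sensor of cytosolic DNA, and *Adamts4*, a matrix protease. The *Sema3d* region lay 36 bp after a start and had fold enrichments of 5.57 and 4.29 in FAK-WT replicates 1 and 2. These genes were picked after their values were seen.

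WT-only regions held the AP-1 heptamer more often than kd-only regions. In the central 500 bp it was present, on either strand, in 685 of 1249 WT-only regions (54.8%, Wilson interval 52.1 to 57.6) and in 393 of 1065 kd-only regions (36.9%, 34.1 to 39.8), against 39.7% of all regions and 36.7% of regions called in all 4 libraries. The core regions gave 56.4% and 36.9%, and all peaks gave 45.7% and 30.3% against 36.7% of all regions. A shuffled heptamer, ACTCAGT, was in 11.0% and 10.3% and in 9.98% of all regions. Promoters hold fewer AP-1 heptamers than other sites, and outside them the shares were 58.3% in WT-only, 45.7% in kd-only, 53.3% in all and 58.9% in regions of all 4 libraries. Outside promoters the WT-only share was thus close to that of the shared regions, and the kd-only share was the lower one.

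This contrast also leaned on 1 library. Without FAK-WT replicate 1 the shares were 47.8% and 42.6%, a gap of 5.25 points (interval 2.54 to 7.94), while without FAK-WT replicate 2, FAK-kd replicate 1 or FAK-kd replicate 2 the gap was 19.9, 15.5 and 14.3 points. Over all regions called in a library the share was 40.9% and 38.7% in FAK-WT replicates 1 and 2 and 37.6% and 37.7% in the FAK-kd libraries. Among regions of a single library it was 49.6% and 42.6% in FAK-WT, and 37.7% and 36.3% in FAK-kd replicates 1 and 2. Both FAK-WT libraries were thus above both FAK-kd libraries in each count, with replicate 1 the higher.

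Other motifs showed smaller differences. The SOX hexamer ACAATG was in 30.2% of WT-only, 22.8% of kd-only and 22.3% of all regions, and the RUNX heptamer TGTGGTT in 18.3%, 14.2% and 13.7%. The TFAP2 motif GCCNNNGGC, which is rich in G and C, was in 16.1%, 21.6% and 23.2%, and outside promoters in 14.4%, 14.8% and 14.7%. The TEAD hexamer GGAATG was in 29.9% and 27.0%, and the ETS heptamers AGGAAGT and CGGAAGT in 18.7% and 16.7%, with overlapping intervals for each pair. The NF-kB motif GGANTTTCC was in 1.2% of WT-only and 2.72% of kd-only regions, against 2.31% of all, and with all peaks in 2.09% and 2.61%. The CRE octamer TGACGTCA was in 1.6% of both sets and 1.49% of all regions at the equal number. With all peaks it was in 16 of 3010 WT-only regions (0.532%, Wilson interval 0.327 to 0.862) and 8 of 575 kd-only regions (1.39%, 0.707 to 2.72), against 1.1% of all. In all, 25 motifs were counted, each on both strands, and the binding of no factor follows from these counts.

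**Figure D4:**
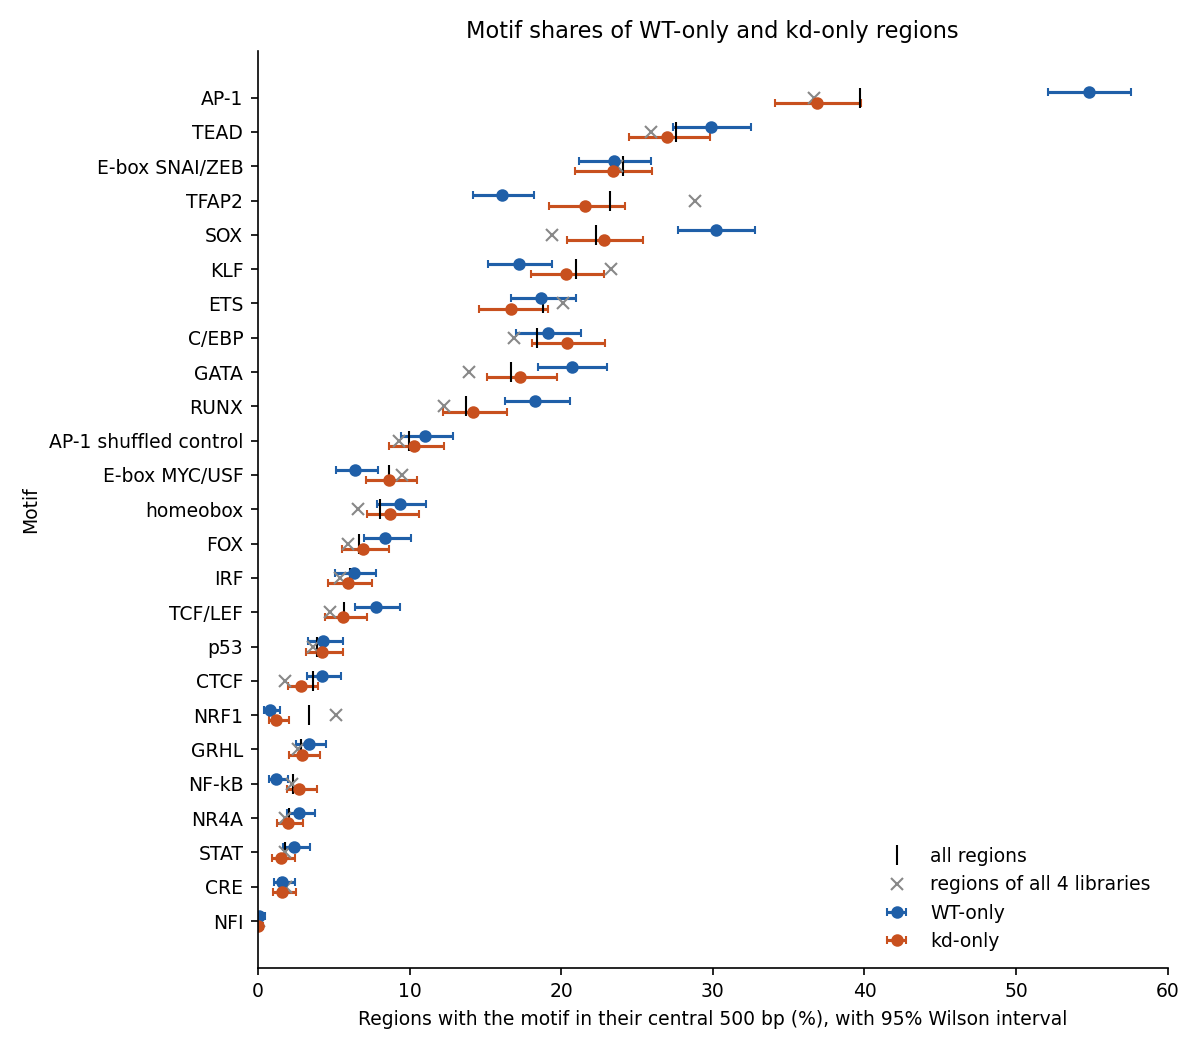
Percent of regions with each motif in their central 500 bp (horizontal axis) for WT-only (blue) and kd-only (orange) regions, with 95% Wilson intervals. Black ticks are all regions and grey crosses regions called in all 4 libraries; AP-1 is the motif with the widest gap, 54.8% against 36.9%.

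Genes were then grouped by role, each region being given to its nearest protein-coding gene. A share of a list is read beside the 3.69% of all regions that were WT-only and the 3.15% that were kd-only. Adhesion receptors came first in order of role. Of 82 regions at integrins and laminins, 6 (7.32%, Wilson interval 3.4 to 15.1) were WT-only and 2 (2.44%) were kd-only. The WT-only ones lay at *Itgb6*, with 2, at *Itgav*, whose product pairs with that of *Itgb6* in a receptor that activates latent TGF-beta, at *Itga1*, a collagen receptor, and at *Lamb3* and *Lamc1*, laminin chains of basement membrane. The *Itgav* region at chr2:83709904-83710576 had fold enrichments of 5.71 in FAK-WT replicate 1 and 4.1 in replicate 2. The kd-only ones were at *Itga3*, a laminin receptor, and at the start of *Lama5*. The interval of the WT-only share includes the 3.69% of all regions. None of these 8 was a core region, and with all peaks the WT-only share was 5.88% beside 4.75% of all regions.

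At focal adhesion proteins, the usual partners of FAK, 5 of 225 regions (2.22%) were WT-only and 7 (3.11%) kd-only. The WT-only regions were the core region of *Cass4*, 1 at *Asap1*, an Arf GTPase activating protein that binds FAK, 2 at *Pdlim5*, which links PDZ and LIM domains at actin filaments, and 1 at the Src family kinase *Fyn*. The kd-only regions included 2 at *Nedd9*, a further Cas family adaptor, and 1 each at *Vcl*, which encodes vinculin, *Lpp*, *Pdlim5* and *Asap1*. The *Vcl* region at chr14:21032141-21032602 had fold enrichments of 5.4 and 7.09 in FAK-kd replicates 1 and 2, and the stronger *Nedd9* region at chr13:41321329-41321813 had 5.28 and 6.47. The members at *Cass4* and *Nedd9*, adaptors of the same family, were thus of opposite sets. With all peaks the order turned, with 15 of 387 regions (3.88%) WT-only and 7 (1.81%) kd-only. Over all regions the shares were then 4.75% and 0.908%.

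Of 240 regions at matrix proteins and proteases, 10 (4.17%) were WT-only and 12 (5.0%, Wilson interval 2.88 to 8.53) were kd-only. Of the 12, 9 lay at collagen genes, a group picked out after the values were seen: 3 at *Col12a1*, which encodes a collagen that coats fibrils, and 1 each at *Col1a1*, *Col1a2*, *Col4a1*, *Col5a1*, *Col16a1* and *Col18a1*. The strongest, at chr9:79610297-79610702 in an intron of *Col12a1*, had fold enrichments of 6.62 in FAK-kd replicate 1 and 7.0 in replicate 2. Collagen genes were nearest to 84 of the 240 regions, of which 9 (10.7%, interval 5.74 to 19.1) were kd-only and 1 WT-only. With all peaks 4 of their 150 regions (2.67%, 1.04 to 6.66) were kd-only, all at 1 gene. The other kd-only regions were at *Adamts5*, *Adamts12* and *Plat*. The WT-only regions included 3 at *Pappa*, of which 2 were core, the core regions of *Pappa2* and *Fn1*, which encodes fibronectin, and regions at *Tnc*, *Sparc*, *Col4a2* and the start of *Plaur*, the receptor of the urokinase system. No kd-only region of this list was core, and with all peaks the shares were 5.3% and 1.2% beside 4.75% and 0.908%.

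Among signalling pathways the Wnt list had the highest WT-only share, with 13 of 161 regions (8.07%, Wilson interval 4.78 to 13.3) WT-only and 5 (3.11%) kd-only. The WT-only regions were at ligands, namely 2 at *Wnt5b* and 1 each at *Wnt9a* and *Wnt10a*, at *Wls*, which carries Wnt proteins to the cell surface and had 2, at the receptors *Ror1* and *Fzd8*, at the secreted antagonist *Dkk2* with 3, and at *Axin2* and *Tcf7l2* of the intracellular pathway. A *Dkk2* region at chr3:131835860-131836384, one of 2 core regions there, had fold enrichments of 7.41 and 4.46 in FAK-WT replicates 1 and 2. The kd-only regions were 3 at the receptor *Ror2*, one of them at its start with fold enrichments of 4.62 and 4.65, and 1 each at *Tcf7l1* and *Tcf7l2*. With all peaks the WT-only share of the list was 4.45%, below the 4.75% of all regions, so its excess was seen at the equal number only.

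Other pathways were near the shares of all regions. The TGF-beta and BMP list had 9 WT-only (4.76%) and 7 kd-only (3.7%) of 189 regions, with *Bmp2* holding 2 core WT-only regions, *Smad7*, an inhibitor of the pathway, a core kd-only region, and *Inhba*, an activin subunit, having 2 WT-only regions far from the gene and a kd-only region at its start. The Notch list had 4 (3.92%) and 6 (5.88%) of 102, the former with its single core region, at *Notch2*, 2 regions at *Rbpj* and 1 at *Jag1*, and the latter with 2 at *Rbpj*, 2 at *Maml3* and 1 each at *Notch2* and *Nrarp*. The Hippo list had 3 (2.13%), with a core region at *Vgll3*, and 5 (3.55%), with a core region at *Fat4*, of 141. Growth factor receptors, ligands and MAPK feedback genes had 5 (2.53%), among them *Dusp6*, *Spred1* and *Errfi1*, and 8 (4.04%), among them *Met*, *Nrg1*, *Vegfa* and *Vegfc*, of 198. With all peaks 4.75% of all regions were WT-only and 0.908% kd-only, and every interval of these 4 lists includes those shares. The TGF-beta and BMP list then had 19 (5.26%) and 4 (1.11%) of 361 regions, and the Notch list 10 (6.02%) and 1 (0.602%) of 166. The Hippo list had 12 (5.08%) and 4 (1.69%) of 236, and growth factors 20 (5.75%) and 1 (0.287%) of 348.

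Lists of transcription factors and chromatin proteins held between 1 and 4 members of each set. The AP-1, ATF and MAF list had 1 WT-only region (1.01%), at *Bach1*, and 4 kd-only regions (4.04%), 2 upstream of *Jun* and 1 each at the starts of *Bach2* and *Fosb*, of 99. Chromatin remodellers had 1 WT-only region (0.84%), at *Mbd2*, and 4 kd-only regions (3.36%) of 119, at *Hdac4*, *Tet1* and *Smarca2*, the last with 2 of which 1 was core. The ETS list had 4 WT-only regions (4.3%), 2 at *Etv6* and 1 each at *Ets1* and *Ets2*, and 1 kd-only region (1.08%) at the start of *Erf*, of 93. The p53 and cell cycle list had 1 (0.893%), at *Sesn1*, and 3 (2.68%), at *Cdkn1a*, *Pmaip1* and *Myc*, of 112. The WT-only intervals of these 4 lists include the 3.69% of all regions, and the kd-only intervals include the 3.15%. With all peaks 4.75% of all regions were WT-only and 0.908% kd-only, and every interval of these 4 lists includes those shares. The AP-1, ATF and MAF list then had 6 (4.14%) and 3 (2.07%) of 145 regions, and chromatin 9 (4.46%) and 2 (0.99%) of 202. The ETS list had 9 (5.92%) and 1 (0.658%) of 152, and p53 and cell cycle 5 (2.66%) and 1 (0.532%) of 188. Genes of the AP-1 family and regions with the AP-1 heptamer are separate counts, and the calls of one say nothing of the other.

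Cytokine genes had shares whose intervals include those of all regions. Of 111 regions, 3 (2.7%) were WT-only, at *Il33*, *Lif* and *Ccl2*, and 2 (1.8%) kd-only, at *Il34* and *Tnfrsf1b*. *Lif* encodes a cytokine of the interleukin-6 family, and its core region at chr11:4283646-4284095 had fold enrichments of 5.17 and 4.26 in FAK-WT replicates 1 and 2. Antigen presentation and interferon genes had 2 WT-only regions, at *Jak1* and *Ifngr2*, and 2 kd-only regions, both at *Socs3*, of 77. With all peaks the cytokine list had 10 WT-only (5.65%) and 0 kd-only of 177 regions. The antigen presentation list then had 5 (4.13%) and 0 of 121, beside 4.75% and 0.908% of all regions.

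Neuronal adhesion and synaptic genes, a list set up with the *Rbfox1* region already known, had 13 WT-only (10.7%, Wilson interval 6.39 to 17.5) and 2 kd-only (1.65%) of 121 regions. The 13 lay at 9 genes and 7 were core, with *Rbfox1* holding 4 and *Nrxn3*, a presynaptic neurexin, 2, and *Ptprt*, a receptor phosphatase, a core region. Without *Rbfox1*, a setting chosen after seeing the data, 9 of 111 regions were WT-only (8.11%, 4.32 to 14.7). Keratinocyte identity and desmosome genes had 9 WT-only (8.82%, 4.71 to 15.9) and 1 kd-only (0.98%) of 102 regions. Of the 9, 6 lay around *Sox9*, a transcription factor of hair follicle stem cells and SCC, at distances from -339370 bp to 292214 bp from its start, and 1 each at *Dsc3*, *Pkp3* and *Klf5*. The kd-only region was at the start of *Pkp1*, a desmosomal plakophilin, with fold enrichments of 4.35 and 6.52 in FAK-kd replicates 1 and 2. Without *Sox9*, likewise chosen after seeing the data, 3 of 68 regions were WT-only (4.41%, 1.51 to 12.2), an interval that includes the 3.69% of all regions. Of the neuronal and keratinocyte regions 71.1% and 56.9% lay 50 kb or more from a start, against 20.9% of all regions, so both lists overlap with the distance described above. When each region was given to the nearest gene of any kind, non-coding genes included, the keratinocyte list kept 1 WT-only and 1 kd-only region of 37, while the neuronal list had 6 of 51 (11.8%) and 2 (3.92%). With all peaks the WT-only shares of the neuronal and keratinocyte lists were 16.1% and 9.36%, beside 4.75% of all regions. Without *Rbfox1* the neuronal share was then 14.5% (36 of 248, 10.7 to 19.4). Without *Sox9* the keratinocyte share was 7.64% (11 of 144, 4.32 to 13.2), an interval that includes the 4.75%.

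When libraries were left out in turn, the WT-only share of the neuronal list ran from 14.4% to 31.5%, of the keratinocyte list from 10.4% to 21.5%, of the Wnt list from 12.7% to 13.4% and of the integrin list from 10.4% to 17.1%, beside 7.66% to 9.85% over all regions in the same counts. Guidance genes had 14 WT-only (5.47%) and 8 kd-only (3.12%) of 256 regions. *Nrp1*, a receptor of semaphorins and VEGF, and *Efnb2*, an ephrin, had 3 WT-only regions each, *Sema6d* had a core WT-only region, and *Sema5a* had 3 of the 8 kd-only regions. Genes of the epithelial-mesenchymal transition had 6 (4.51%) and 5 (3.76%) of 133, with *Runx1* and *Runx2* in both sets and a core WT-only region at *Ovol2*, a repressor of that transition. All of these are counts beside those of all regions, and no list was tested against another.

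**Figure D5:**
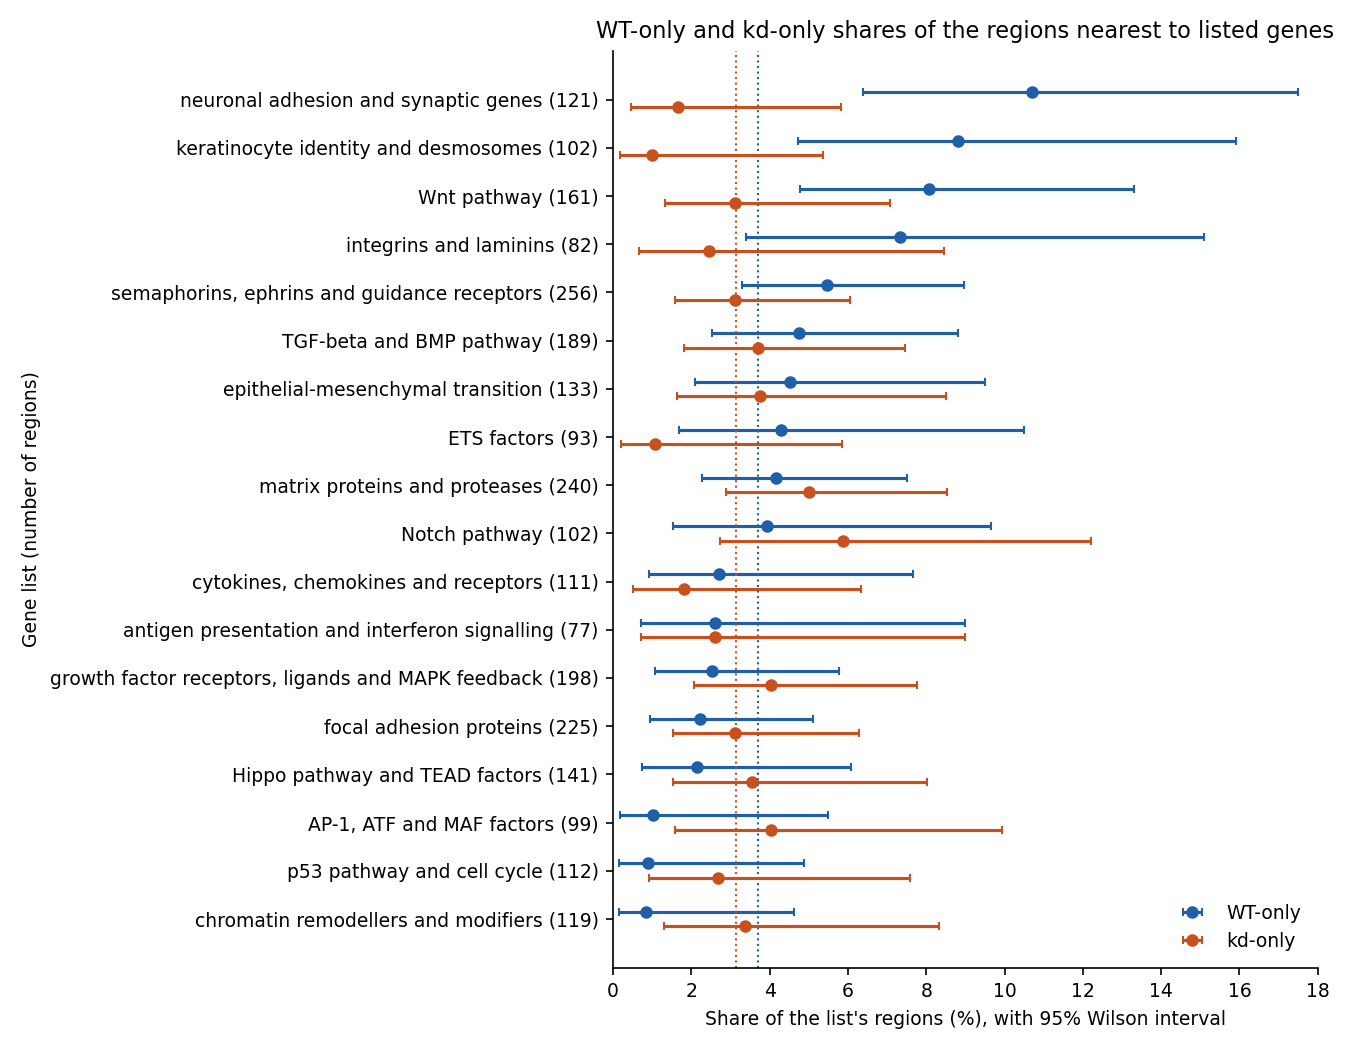
WT-only (blue) and kd-only (orange) shares, in percent, of the regions nearest to the genes of each list (vertical axis, number of regions in parentheses), with 95% Wilson intervals. Dotted lines are the shares over all regions, 3.69% and 3.15%; neuronal adhesion, keratinocyte identity and Wnt genes have WT-only intervals above the blue line.

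Regions called in all 4 full lists allow a comparison of height. For these 27122 regions the log2 fold enrichment, quantile normalized over the 4 libraries, was compared with limma, and the differences below are FAK-WT minus FAK-kd on that log2 scale. No region was higher in FAK-WT (0%) or in FAK-kd (0%) at a Benjamini-Hochberg adjusted p below 0.05, and the smallest adjusted p was 0.0825. These counts changed with the setting, to 5 and 4 with log2 pileup and to 1 and 0 with median centring. A fit to all 8 libraries gave 2 and 0. A replicate block gave 18 and 4, although it is not known whether the numbers pair the libraries. At an unadjusted p below 0.05, 1060 regions (3.91%) were higher in FAK-WT and 695 (2.56%) in FAK-kd. Outside promoters 5.52% were higher in FAK-WT and 3.03% in FAK-kd, and in promoters 1.54% and 1.87%.

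The regions with the smallest p are given as values. The region at chr7:106236300-106237030, nearest to *Gvin1*, an interferon-inducible GTPase, had a log2 fold enrichment of 3.03 and 3.08 in FAK-WT replicates 1 and 2 and of 2.00 and 1.90 in FAK-kd replicates 1 and 2, a difference of 1.11 (SE 0.15, limma adjusted p = 0.0825). At the *Asap1* region the values were 2.70 and 2.73 against 1.76 and 1.72, a difference of 0.98 (limma adjusted p = 0.0857). At the *Col12a1* intron they were 1.77 and 1.80 against 2.86 and 2.69, a difference of -0.99 (SE 0.15, limma adjusted p = 0.0857). At the *Vcl* region they were 2.04 and 1.92 against 2.58 and 2.71, a difference of -0.66 (limma adjusted p = 0.384). These 4 regions were picked from those with the smallest p, so groups that do not overlap follow from that choice. Other leading regions higher in FAK-WT were nearest to *Alg10b*, *Fsip1*, *Elavl2*, *Pde8b* and *Ldhb*, with differences from 0.85 to 0.99 and limma adjusted p values up to 0.205. Others higher in FAK-kd were nearest to *Cntn5*, *Eepd1*, *Spen*, *Efcab1* and *Usp35*, with differences from -0.85 to -0.70 and limma adjusted p values up to 0.315. The *Asap1*, *Col12a1* and *Vcl* regions are among the WT-only and kd-only calls at the equal number, and these heights come from the same peaks, so they are no independent evidence. Medians of the lists ran from -0.060 for the AP-1, ATF and MAF list to 0.025 for the epithelial-mesenchymal list, beside -0.010 for all regions.

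The loci the study was built on gave few members. *Ptk2* held 9 regions in the full lists, 7 of them shared by all 4 libraries, and none was WT-only or kd-only. The region at its start, chr15:73422582-73423586, had fold enrichments of 5.81 and 5.54 in FAK-WT and of 6.04 and 5.67 in FAK-kd replicates 1 and 2, and the log2 difference was -0.08 (SE 0.17, limma adjusted p = 0.99). The FAK constructs were delivered by retrovirus, so these peaks do not check them. *Jun* held 1 region in the gene and at its start, called in all 4 libraries, with fold enrichments of 3.64 and 3.86 in FAK-WT and of 4.11 and 4.01 in FAK-kd and a log2 difference of -0.15 (SE 0.16, limma adjusted p = 0.972).

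*Il33* encodes a cytokine of the interleukin-1 family that is released by epithelial cells and is also held in the nucleus on chromatin. It held 7 regions in the full lists at distances from -42383 bp to 21192 bp from the outermost annotated start, and 4 of them had a peak in each of the 4 lists. The log2 differences of those 4 were between -0.22 and 0.25, and their limma adjusted p values ran from 0.916 to 0.984. The 1 WT-only region, at chr19:29942388-29942780 in an intron, lay at -3206 bp from the nearest annotated transcript start and 17470 bp after the outermost start of the gene, and is the window printed above with an AP-1 heptamer and a CRE. It had fold enrichments of 6.32 and 4.01 in FAK-WT replicates 1 and 2, ranks 10599 and 23497, and no peak in either FAK-kd list. With its rank in replicate 2 so near the last of the 24383 peaks, the region was called in FAK-WT replicate 1 alone when the 15000 strongest peaks were taken. At the equal number it was also called in FAK-/- replicate 1, but not in FAK-/- replicate 2 or either FAK-nls library. A further intronic region, at chr19:29945685-29946927, had fold enrichments of 3.34 and 3.4 in FAK-WT replicates 1 and 2. It had 3.48 in FAK-kd replicate 2 and no peak in FAK-kd replicate 1.

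At the equal number the remaining lines were split over the members. Of the WT-only regions 43.9% were called in neither FAK-/- library and 27.1% in both, and 50.9% in neither FAK-nls library and 22.7% in both. Of the kd-only regions 35.3% were called in neither and 31.3% in both FAK-/- libraries, and 38.1% in neither and 34.6% in both FAK-nls libraries. Regions called in 1 FAK-WT and 1 FAK-kd library gave 39.2% and 28.5% for FAK-/-, and 43.4% and 29.5% for FAK-nls. No library of either line called 334 WT-only regions (26.7%) and 197 kd-only regions (18.5%), and all 4 called 113 (9.05%) and 159 (14.9%). Over all regions these shares were 15.4% and 45.1%, and over regions called in 1 library of each line 20.9% and 10.4%. Among core regions 124 of 220 (56.4%) and 26 of 65 were called by none, and 6 and 9 by all 4. *Cass4* is one of the 6 core WT-only regions called in every library except those of FAK-kd, and *Basp1*, *Ncam1*, *Ank3* and *Sh3d19* are among the 9 core kd-only regions called in every library except those of FAK-WT. With all peaks 86.4% of WT-only and 77.6% of kd-only regions were called in neither FAK-nls library, and 3.06% and 10.8% in both. For FAK-/- these shares were 50.3% and 42.6%, and 19.2% and 29.2%. Regions called in 1 library of each line then gave 86.6% and 2.55% for FAK-nls, and 51.3% and 17.2% for FAK-/-.

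Members were spread over the chromosomes. Leaving out chromosome Y, which had 2 regions and no member, the WT-only share ran from 2.33% of regions on chromosome 19 to 4.74% on chromosome X, and the kd-only share from 2.16% on chromosome 1 to 5.09% on chromosome 19, where kd-only regions outnumbered WT-only regions by 46 to 21. Chromosomes 10, 11, 13, 15, 16 and 18 also held more kd-only than WT-only regions, and chromosomes 1, 3 and 7 had the reverse by the widest margins. With all peaks every chromosome but Y held more WT-only than kd-only regions, with 55 and 24 on chromosome 19 and 118 and 32 on chromosome 10. The kd-only share was then still highest (1.49%) and the WT-only share lowest (3.41%) on chromosome 19. In the regions of all 4 full lists the median log2 pileup, centred on each library's own median, of FAK-WT minus that of FAK-kd was between -0.10 on chromosome 10 and 0.10 on chromosome 3, and was -0.08 on chromosome 19. The part of these shifts in the shares was not tested.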

How the data were processed

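ATAC-seq was performed in 2 libraries of each line. Per the study's methods and the submitters' processing notes, reads were aligned to mm10 and peaks were called per library with MACS2 2.1.1 in broad mode at a q of 0.05. The deposited lists give for each peak a pileup (read coverage signal), a −log10 p and −log10 q, and a fold enrichment (ratio) over local background, all computed by the authors' peak caller. Read totals are not in the lists, but the study's sequencing statistics list more mapped reads for both FAK-WT than for both FAK-kd libraries. Between 0.784% and 3.83% of the deposited peaks in each library had a q above 0.05 and were kept.

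From these files the strongest peaks by −log10 p were merged where they shared at least 1 bp over the 4 libraries. Regions were given to the nearest protein-coding transcript start of an mm10 annotation that held 141730 transcript starts, and motifs were searched in the central 500 bp. Regions called in all 4 full lists were compared with limma 3.58.1 in R 4.3.3 on quantile-normalized log2 fold enrichment, with Benjamini-Hochberg adjustment. Python 3.11.15, pandas 2.3.3, scipy 1.17.1 and pysam 0.24.0 were used otherwise, and the scripts were tested on simulated data. The study compared reads with DiffBind, which peak lists do not allow. Shares have 95% Wilson intervals, which cover counting error only.

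The members, the gene lists and the motifs were chosen with earlier results of these data known. Named were the 12 core regions of each direction with the best worst rank, genes with the most core regions, the regions with the smallest limma p, list members with a core region, and *Ptk2*, *Il33*, *Jun* and *Cass4*. Other genes were named after their values were seen, and some items are not reported here. Alternatives were all peaks, ranking by fold enrichment, 15000 peaks, a minimum −log10 q of 3, peaks of 500 bp, 50% coverage, merging over 8 libraries, autosomes alone, other scalings, a replicate block and leaving out each library. Whether the replicate numbers pair the libraries is not known, and the line and its libraries cannot be told apart.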

Additional observations from a re-analysis of the deposited data

How the results depend on the processing

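At the equal number the WT-only and kd-only counts stayed within 1.5 times of 1249 and 1065 when peaks were ranked by fold enrichment, cut to 500 bp, held to 50% coverage, merged over 8 libraries or kept to autosomes. They moved to 3010 and 575 with all peaks and to 2197 and 286 with a minimum −log10 q of 3, and with the 15000 strongest peaks the kd-only count moved to 681. Ranking by fold enrichment kept 777 of the 1249 WT-only and 526 of the 1065 kd-only regions, the 15000 strongest peaks kept 169 and 103, and the minimum −log10 q kept 737 and 144. Leaving out a library asks less of a region by construction and gave 2431 to 3175 WT-only and 2110 to 3183 kd-only regions. The promoter gap of 17.5 points ran from 3.92 points without FAK-kd replicate 1 to 28.0 points without FAK-WT replicate 2. Taken against all regions, 1 list share (Wnt, WT-only) left its 95% interval with all peaks and 6 did with the nearest gene of any kind, the keratinocyte list among them. Of 25 motif gaps, 5 left their interval with all peaks, 2 outside promoters (AP-1, to 12.6 points, and TFAP2) and 0 in the central 300 bp. Of 42 chromosome shares taken against all regions, 6 left their interval with all peaks, among them the kd-only shares of chromosomes 1, 10 and 19. The lists give no reads per region outside peaks, so no limit of detection can be set for a region, and the FAK-kd libraries had fewer mapped reads.

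By limma the count of 0 regions in either direction was the same with the highest fold enrichment per region and with the regions of the strongest peaks of all 4 libraries. Median centring gave 1 region higher in FAK-WT and 0 in FAK-kd, log2 pileup gave 5 and 4, and a fit to all 8 libraries gave 2 and 0. Leaving out a library gave 0 to 2 higher in FAK-WT and 0 higher in FAK-kd, but leaves 1 library in an arm, which is assumed to vary like those of the other line. The cause of the changes was not tested.

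The labels give both lines replicates 1 and 2 and do not say what the numbers mark. Deviations from the line means correlated at -0.176 between same-numbered libraries and at 0.176 between FAK-WT replicate 1 and FAK-kd replicate 2. With 2 libraries per line each value is the mirror of the other. They cannot decide whether the numbers pair the libraries. A replicate block gave 18 regions higher in FAK-WT and 4 higher in FAK-kd. The crossed pairing, chosen after seeing the data, gave 21 and 4.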
